A study of Homo sapiens with 8 samples.

Results

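The LDB1 complex was followed at the level of its own genes in T-cell acute lymphoblastic leukaemia (T-ALL) cells with and without knockdown of LDB1. The 9 genes LDB1, LDB2, SSBP2, SSBP3, SSBP4, LMO1, LMO2, LMO4 and RLIM were taken by name, and all 9 were found among the 64252 genes of each count table. RNA from 2 human T-ALL cell lines was sequenced, 6T-CEM, which derives from CCRF-CEM, and J.gamma1, a clone of Jurkat that lacks phospholipase C gamma 1. Each line carried a lentiviral control shRNA, labelled shControl and called sh-NC here, or an shRNA against LDB1 (sh-LDB1), and all infected cells had been selected with puromycin. Each of the 4 groups held 2 libraries, 8 in all. Nothing in the labels says that the 2 libraries of a group came from separate cultures, so p-values measure only the spread between these libraries, which may be technical. The study names 3 shRNAs against LDB1 but not the one that the sequenced cells carried, so each line stands for 1 knockdown that is not identified further.

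LDB1 is a scaffold protein that does not bind DNA by itself. It self-associates, and it holds LIM-domain proteins through its LIM-interaction domain, so that pairs of DNA-bound complexes can be brought together. In blood cells the LIM-only protein LMO2 joins LDB1 to TAL1, E-proteins and GATA factors, and in T-ALL LMO1 or LMO2 is often switched on out of place. SSBP proteins bind LDB1 and protect it from degradation, and the ubiquitin ligase RLIM, also called RNF12, marks LDB proteins and LMO proteins for it. LDB2 is the paralog of LDB1 and can take its place in the same kind of complex.

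The sequences that the knockdown rests on are shown first, since an shRNA against LDB1 could also match its paralog or reach other genes of the complex through its seed. LDB1 (ENSG00000198728) lies at chr10:102106489-102120368 of GRCh38 on the minus strand. All 3 targets are coding. That of sh-LDB1#1 joins 8 bases of exon 4 (chr10:102111069-102111076) to 13 bases of exon 5 (chr10:102110959-102110971). The targets of sh-LDB1#2 and sh-LDB1#3 lie in exon 6 (chr10:102110657-102110677) and exon 7 (chr10:102109971-102109991). Capitals mark the 7 bases that pair with the seed of the guide strand.
sh-LDB1#1: ggacagaggagtgTGACAATc
sh-LDB1#2: gctacttccgcagCATCTTTg
sh-LDB1#3: ggataaagacgtgGCACTTCa
The targets were found in 4, 4 and 3 of the 4 annotated LDB1 transcripts. LDB2 is the other scaffold gene of the 9, and its most similar stretches are given in the same order, with the bases that differ from the target in capitals.
LDB2 at sh-LDB1#1: gCacagaggaTAgtgacaaCc
LDB2 at sh-LDB1#2: gTtacttTAgcaCTGtGtttg
LDB2 at sh-LDB1#3: gAatCaaAacAtggcacttTa
Counted from 1 at the 5′ end of the target, with the base of LDB1 first, LDB2 differed from the target of sh-LDB1#1 at 4 positions (G2C, G11T, T12A and T20C). It differed from the other two at 7 and 5 positions. No other gene of the complex came closer to any of the 3 targets than 6 mismatches of 21 bases.

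The 3′ UTRs of 4 genes of the complex held a seed site. SSBP2, which has the longest 3′ UTR of the SSBP genes, held 2, 3 and 1 sites for sh-LDB1#1, #2 and #3. SSBP3 and LMO2 held 1 site and RLIM 2 sites, all for sh-LDB1#2. No site was found in LDB1, LDB2, SSBP4, LMO1 or LMO4. Among 19349 genes with an annotated 3′ UTR, 9.43% held a site for the first seed, 17.6% for the second and 7.88% for the third. A site of this kind is only a match of letters.

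The 8 libraries held between 26160492 and 30604977 counts, and replicates of 1 group differed by a biological coefficient of variation of 9.68% (6T-CEM) and 9.16% (J.gamma1). All 8 genes of a T-lineage marker list were above 3 counts in both libraries of every group, with a summed level of 1516 to 1577 normalised CPM (counts in 1000000 counts of the library, its size corrected by TMM normalisation over all 8 libraries) in sh-NC and 1934 to 1956 in sh-LDB1 cells of 6T-CEM, and 1972 to 2024 and 2384 to 2460 in J.gamma1. CD2 was low in 6T-CEM, with 9 to 14 counts in a library. The T-lineage sums hold genes that moved both ways. In 6T-CEM CD3D, CD3E, CD3G, CD7 and LCK were higher after knockdown and CD5 was lower, while CD2 and ZAP70 overlapped. In J.gamma1 CD3E, CD3G, CD7 and ZAP70 were higher and CD2, CD3D, CD5 and LCK lower. Of 4 erythroid genes 0 were above 3 counts in both libraries of a 6T-CEM group and 1, HBA1, in both J.gamma1 groups, with 20 and 16 counts in sh-NC and 10 and 11 in sh-LDB1 cells. HBB and ALAS2 were at 0 in all libraries, and the summed erythroid level lay between 0 and 0.63 CPM. Of 5 B-lineage genes 3 were above 3 counts in both groups of 6T-CEM and 2 in both groups of J.gamma1, with summed levels of 34 to 46.4 and 69.7 to 79.2 CPM. Summed myeloid markers stayed between 0.252 and 2.78 CPM. Summed epithelial and fibroblast markers were higher after knockdown in both lines, at 0.148 to 0.539 CPM in sh-NC and 1.01 to 2.33 in sh-LDB1 cells of 6T-CEM, and at 4.91 to 4.95 and 10.2 to 11 CPM in J.gamma1. In J.gamma1 most of this sum was COL1A1, at 4.32 and 4.15 CPM in sh-NC and 8.97 and 9.27 in sh-LDB1 cells, while EPCAM was at 0. The part of these marker differences in the results was not tested.

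In sh-NC cells the lines differed in which LIM-only genes were expressed. Levels are given as normalised CPM, and levels of different genes are compared only per kilobase (CPM per kb) of annotated exon. The 3 stabilizer genes SSBP2, SSBP3 and SSBP4, the scaffold LDB1, the ligase RLIM and the adaptor LMO4 were present in both lines, while LMO2 was near 0 in J.gamma1 and LMO1 was at 0 in 6T-CEM. By the edgeR quasi-likelihood test across both lines, 7 of the 9 genes differed between J.gamma1 and 6T-CEM sh-NC cells at an adjusted p under 0.05, where 65.7% of all genes tested did. Of the 7, 3 were higher in J.gamma1 and 4 in 6T-CEM. LMO1, LMO2 and LDB2 are among the 7, but they passed the filter on low counts only through the line where they were higher. Their differences are therefore given as values without a test, and the count of 7 does not test them.

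**Figure D1:**
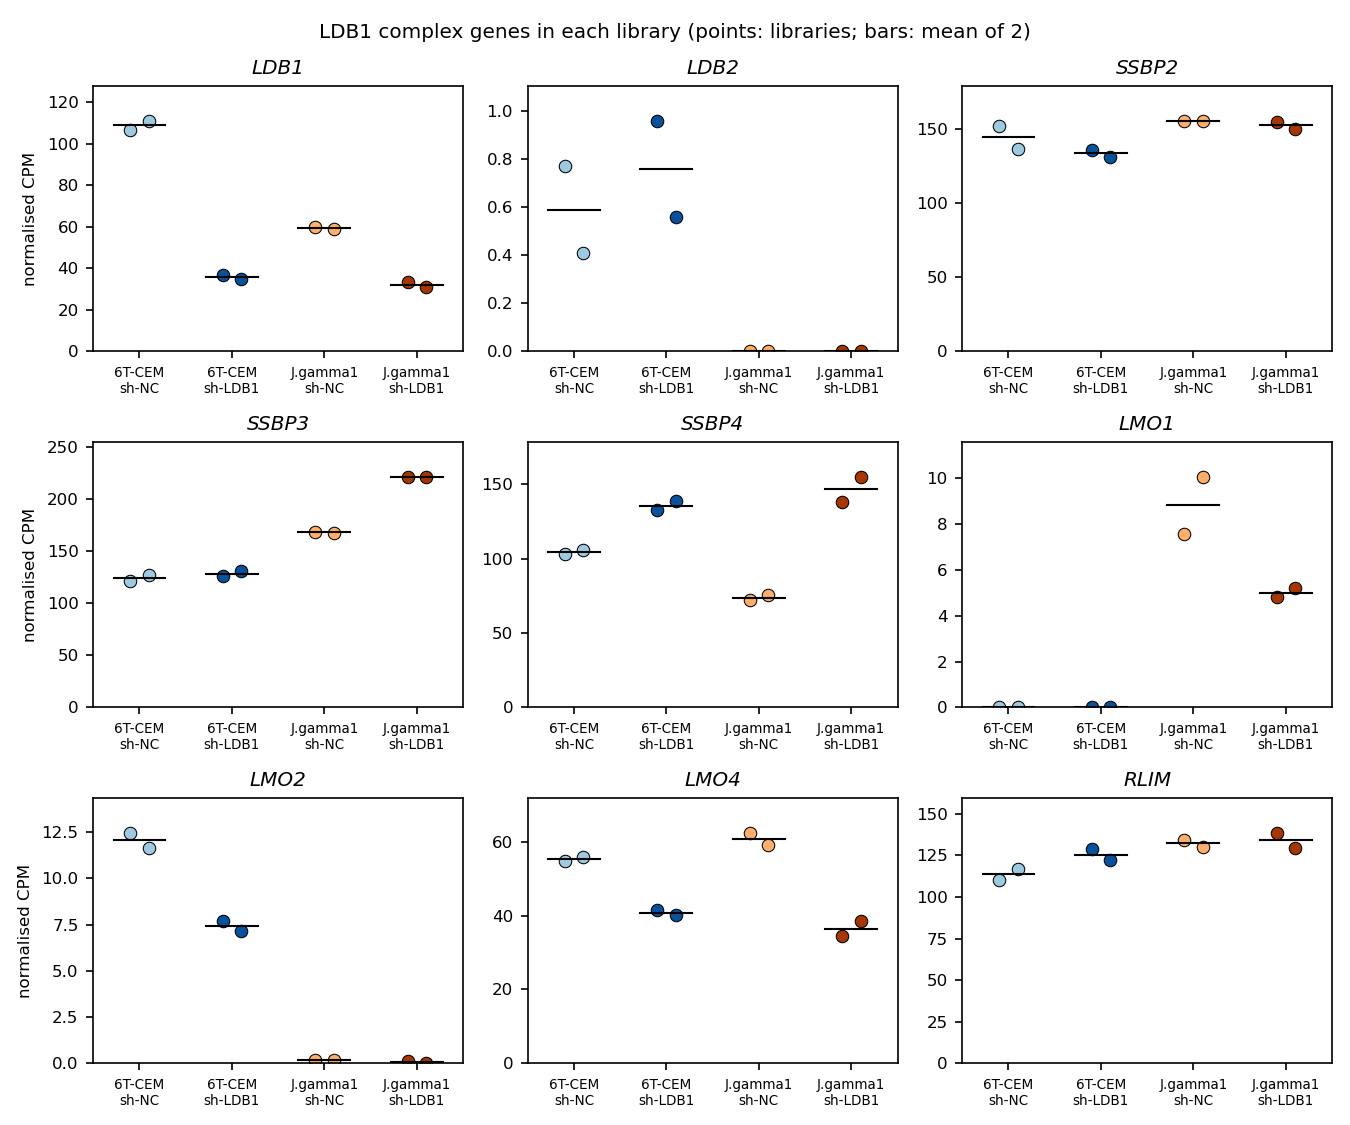
Normalised CPM of the 9 genes in each library, 1 panel per gene with its own axis from 0. Points are libraries, coloured by group, and bars are means of 2. LDB1 and LMO4 are lower and SSBP4 is higher in both sh-LDB1 groups, SSBP3 is higher in J.gamma1 sh-LDB1 cells, LMO1 lies at 0 in 6T-CEM and LMO2 lies near 0 in J.gamma1.

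LMO1 (chr11:8224309-8268716, minus strand), a LIM-only adaptor and T-ALL oncogene, had 0 counts in all 4 libraries of 6T-CEM. In J.gamma1 sh-NC cells it had 241 and 318 counts, or 7.59 and 10.1 normalised CPM. Its mean level in J.gamma1 sh-NC cells was 77.9 times that of 3 counts per library in 6T-CEM sh-NC cells, taken as the floor for a count of 0. This floor covers counting error only, and the ratio uses the mean of 2 libraries, so it is not a lower limit. LMO2 (chr11:33858576-33892076, minus strand), the adaptor that links LDB1 to TAL1 complexes, showed the opposite pattern. It had 324 and 314 counts in 6T-CEM sh-NC cells and 5 and 5 in J.gamma1 sh-NC cells, 1.35% of the 6T-CEM level (log2 difference -6.22 ± 0.403 SE). LMO4 (chr1:87328880-87348923, plus strand), the more widely expressed LIM-only gene, did not pass the test, with 54.8 and 55.8 normalised CPM in 6T-CEM and 62.5 and 59.2 in J.gamma1. Its log2 difference of 0.14 had a 95% interval from -0.02 to 0.30 (adjusted p = 0.115).

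The scaffold was lower in J.gamma1. LDB1 stood at 106.9 and 111.2 normalised CPM in 6T-CEM sh-NC cells and at 60.1 and 58.8 in J.gamma1 sh-NC cells, 54.5% of the 6T-CEM level (log2 difference -0.87 ± 0.065 SE, adjusted p = 1.58e-07). LDB2 (chr4:16501541-16898678, minus strand) had 20 and 11 counts in 6T-CEM sh-NC cells and 0 in each J.gamma1 library. Its mean level in 6T-CEM sh-NC cells was 6.21 times that of 3 counts per library in J.gamma1 sh-NC cells, which is not a lower limit. Even in 6T-CEM sh-NC cells LDB2 made up 0.375% ± 0.17 (SD, n = 2) of the summed scaffold level per kb.

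The stabilizers differed between the lines in both directions. SSBP4 (chr19:18418864-18434562, plus strand) was at 103.2 and 106.1 normalised CPM in 6T-CEM and at 72.1 and 75.3 in J.gamma1 sh-NC cells (log2 difference -0.51 ± 0.063 SE, adjusted p = 1.76e-05). SSBP3 (chr1:54225432-54413479, minus strand) was at 120.8 and 126.9 in 6T-CEM and at 168.1 and 167.3 in J.gamma1 (0.44 ± 0.048 SE, adjusted p = 5.72e-06). SSBP2 (chr5:81412804-81751797, minus strand) did not pass the test, with a log2 difference of 0.11 (95% interval -0.02 to 0.23, adjusted p = 0.118). RLIM (chrX:74582976-74614624, minus strand) was higher in J.gamma1 by 0.22 ± 0.056 SE on the log2 scale (adjusted p = 0.00433). It shares 459 exon bases with the pseudogene PABPC1P3, which had at most 14 counts in a library. The RLIM call was lost without 6T-CEM sh-NC replicate 1 (adjusted p = 0.0564), and the same omission brought SSBP2 past the threshold (0.18, adjusted p = 0.0263). Scaling to library totals alone moved the median of all genes in this comparison by 0.144 and brought SSBP2 (0.25, adjusted p = 0.0032) and LMO4 (0.28, adjusted p = 0.00463) past it too.

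Ordered by level per kb, SSBP4 led in 6T-CEM sh-NC cells with 35.2 CPM per kb, ahead of LDB1 with 28.9, SSBP3 with 17.9, SSBP2 with 12.5, RLIM with 10.7, LMO4 with 10.2, LMO2 with 4.17 and LDB2 with 0.108, and no neighbouring pair had overlapping libraries. In J.gamma1 sh-NC cells the libraries of SSBP4, with 24.8 CPM per kb, and SSBP3, with 24.2, overlapped, so that their order is not resolved. They were followed by LDB1 with 15.7, SSBP2 with 13.5, RLIM with 12.4, LMO4 with 11.2, LMO1 with 5.18 and LMO2 with 0.0546 CPM per kb. The choice of length changed this order, most of all for SSBP3, whose annotated exons sum to 6930 bases but whose transcript with the longest coding sequence has 3252. With that transcript's length, SSBP3 stood above LDB1 in 6T-CEM sh-NC cells (38.1 against 35.2 CPM per kb) and above SSBP4 in J.gamma1 sh-NC cells (51.6 against 42.7). LMO4 and RLIM then stood at 11.1 and 10.8 CPM per kb in 6T-CEM and at 12.2 and 12.5 in J.gamma1 sh-NC cells, and their libraries overlapped in both lines, so that the order of these genes is not resolved.

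In LDB1-knockdown 6T-CEM cells LDB1 and the adaptors LMO2 and LMO4 fell in comparison to control cells, and SSBP4 rose. LDB1 had 36.98 and 34.98 normalised CPM in sh-LDB1 cells, 33.1% of the control level, and its libraries lay far below both sh-NC libraries (log2 fold change -1.60 ± 0.071 SE, adjusted p = 1.02e-09). Of the 8 genes tested 4 were called by edgeR's quasi-likelihood test at an adjusted p under 0.05, against 31.3% of all genes tested. Of these 1 rose, where 15.1% of all genes did, and 3 fell, where 16.2% did. The 3 that fell include LDB1, the shRNA target, so these counts hold a fall that the knockdown was made to produce. With a log2 fold change beyond 1 as well, LDB1, the target itself, was the 1 gene called, against 5.13% of all genes. The median log2 fold change of the 8 genes was -0.03 and that of all genes 0.003. LMO1, with 0 counts, could not be tested in this line. In these bulk samples fewer cells with a transcript and less of it per cell cannot be told apart.

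LMO2 had 12.5 and 11.7 normalised CPM in 6T-CEM sh-NC cells and 7.68 and 7.13 in sh-LDB1 cells. The groups did not overlap, and the fall was -0.70 ± 0.156 SE on the log2 scale (adjusted p = 0.00324). In a fit to all 8 libraries, in which LMO2 is near 0 in J.gamma1, the fold change was the same, -0.70, but its SE was 0.267 and it was not called (adjusted p = 0.0743). LMO4 went from 54.8 and 55.8 to 41.4 and 40.3 normalised CPM, again without overlap. Its fold change of -0.43 ± 0.076 SE (adjusted p = 0.000503) left it at 74% of the control level.

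SSBP4, the stabilizer that rose, went from 103.2 and 106.1 normalised CPM in control cells to 132.6 and 138.9 after knockdown (log2 fold change 0.38 ± 0.061 SE, adjusted p = 0.000274). Its 2974 bases of exon share 175 with ISYNA1 on the opposite strand, and the sources used here do not say whether counting used the strand. The 6T-CEM counts of ISYNA1 were 812 and 892 in control cells and 676 and 695 after knockdown, so it did not move in the direction of SSBP4. SSBP3 (0.05, 95% interval -0.08 to 0.19, adjusted p = 0.549) and SSBP2 (-0.11, -0.25 to 0.03, adjusted p = 0.233) did not pass the test. RLIM did not pass it either, at 0.15 (0.01 to 0.28, adjusted p = 0.0885), except with library totals alone as the scaling (0.19, adjusted p = 0.0362).

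LDB2 went from 20 and 11 counts to 28 and 16 counts. These groups overlapped, and the log2 fold change of 0.37 had an interval from -0.76 to 1.51 (adjusted p = 0.648). At this depth neither a fall nor a rise of LDB2 within that interval is excluded. As a share of the summed scaffold level per kb, LDB2 went from 0.375% ± 0.17 to 1.43% ± 0.47 (SD, n = 2), or from 0.701% to 2.65% with the length of the longest-CDS transcript. LDB1 still made up 98.6% ± 0.47 of it after knockdown.

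In LDB1-knockdown J.gamma1 cells LDB1 and LMO4 also fell and SSBP4 rose, and here LMO1 fell and SSBP3 rose. LDB1 had 60.1 and 58.8 normalised CPM in sh-NC cells and 33.2 and 30.8 in sh-LDB1 cells, 54.0% of the control (log2 fold change -0.89 ± 0.075 SE, adjusted p = 3.68e-06). Of the 7 genes tested 5 were called, against 51.5% of all genes. Of these 2 rose, where 25.0% of all genes did, and 3 fell, where 26.5% did. The 3 that fell again include LDB1, the target, whose fall the knockdown was made to produce. The median log2 fold change of the 7 genes was -0.02, and that of all genes 0.000. With a log2 fold change beyond 1 as well, 0 genes were called by edgeR against 13.9% of all genes, and the count was also 0 at an unadjusted p under 0.05 and by DESeq2. SSBP4 was nearest to that limit, at 0.9981. It passed the limit with library totals alone (1.03), so that the count was 1. It also lay beyond the limit without sh-NC replicate 2 (1.02) and without sh-LDB1 replicate 1 (1.08). With DESeq2 size factors in edgeR, with no filter on low counts and with the replicate block it rounded to 1.00, too near the limit to place. LDB2 and LMO2, with at most 5 counts in a library of this line, were not tested.

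SSBP4 had 72.1 and 75.3 normalised CPM in J.gamma1 sh-NC cells and 138.1 and 155.2 in sh-LDB1 cells, 200% of the control (log2 fold change 1.00 ± 0.063 SE, 95% interval 0.86 to 1.14, adjusted p = 4.7e-07). ISYNA1, its antisense neighbour, had at most 105 counts in any J.gamma1 library, against 2287 and 2376 counts of SSBP4 in control cells and 3863 and 4570 after knockdown. SSBP3 went from 168.1 and 167.3 normalised CPM to 220.6 and 221.3 (0.40 ± 0.045 SE, adjusted p = 3.03e-05). It shares 33 exon bases with MRPL37 on the opposite strand, which had between 3407 and 3741 counts in J.gamma1. SSBP2 had 155.2 and 155.4 normalised CPM in sh-NC and 154.7 and 149.7 in sh-LDB1 cells, and its log2 fold change of -0.02 had an interval from -0.13 to 0.08 (adjusted p = 0.719).

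LMO1 had 7.59 and 10.1 normalised CPM in J.gamma1 sh-NC cells and 4.82 and 5.20 in sh-LDB1 cells. The groups did not overlap, and LMO1 fell to 57.0% of the control (log2 fold change -0.81 ± 0.187 SE, adjusted p = 0.00393). Leaving out libraries moved it, and the fold change came as low in size as -0.60 when 1 library at a time was left out. LMO4 fell from 62.5 and 59.2 to 34.4 and 38.6 normalised CPM (-0.73 ± 0.079 SE, adjusted p = 2.16e-05), to 60.2% of the control. RLIM stood at 134.5 and 130.0 in sh-NC cells and 138.7 and 129.6 in sh-LDB1 cells, and the groups overlapped (0.03, interval -0.09 to 0.15, adjusted p = 0.720).

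**Figure D2:**
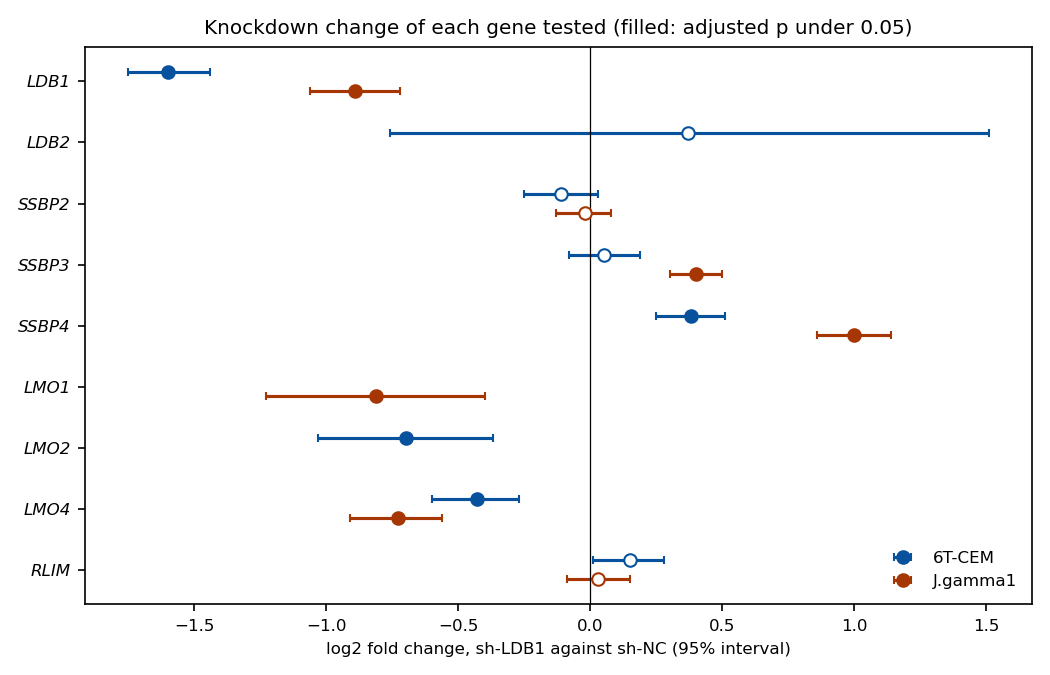
Log2 fold change of sh-LDB1 against sh-NC for each gene tested, with its 95% interval, in 6T-CEM (blue) and J.gamma1 (brown). Filled points passed an adjusted p under 0.05. LDB1 and LMO4 lie left of 0 and SSBP4 right of 0 in both lines, and the interval of SSBP2 holds 0 in both.

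Whether the knockdown changed a gene to a different extent in the lines was tested as an interaction in the fit to all 8 libraries. Of 7 genes in this test 3 were called, against 24.4% of all genes. LDB1 fell less in J.gamma1, by a difference of 0.70 ± 0.095 SE on the log2 scale (adjusted p = 0.000237), and SSBP4 rose more, by 0.62 ± 0.089 SE (adjusted p = 0.000383). SSBP3 also rose more in J.gamma1, by 0.35 ± 0.068 SE (adjusted p = 0.00284). For LMO4 the difference of -0.30 had an interval from -0.53 to -0.07 and an adjusted p of 0.0562. It passed the threshold only without J.gamma1 sh-LDB1 replicate 2 (-0.39, adjusted p = 0.0299). SSBP2 (0.08, -0.09 to 0.26, adjusted p = 0.526) and RLIM (-0.12, -0.30 to 0.05, adjusted p = 0.307) did not pass. LMO2 is among the 7, but it passed the filter on low counts only through 6T-CEM, where it was higher. Its difference is therefore given as a value without a test, and the count does not test it. The interval was wide, from -2.15 to 1.29 around -0.43, with at most 5 counts of LMO2 in a J.gamma1 library. LDB2 and LMO1 gave no test, since 1 line had no library above 3 counts. The LDB1 levels reached were 35.98 ± 1.42 normalised CPM in 6T-CEM and 31.98 ± 1.72 (SD, n = 2) in J.gamma1 sh-LDB1 cells. These were nearer to each other than the means of 109 and 59.47 in sh-NC cells. The sh-LDB1 libraries of the lines did not overlap (36.98 and 34.98 against 33.2 and 30.8), and this difference was not tested.

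With LDB1 lower and SSBP4 higher, the make-up of the transcripts of the complex differed after knockdown. These ratios and shares were not tested. The ratios are to the scaffold genes, and nearly all of that level is LDB1, the target, so its fall alone raises them. Summed over SSBP2, SSBP3 and SSBP4, the stabilizers stood at 2.26 ± 0.047 times the scaffold level per kb in 6T-CEM sh-NC cells and at 7.85 ± 0.53 times in sh-LDB1 cells (SD, n = 2). In J.gamma1 the ratio went from 3.97 ± 0.11 to 11.2 ± 1.1. With the length of the longest-CDS transcript the ratios were 3.25 and 11.2 in 6T-CEM, and 5.83 and 16.5 in J.gamma1. In both lines the libraries of the groups did not overlap. Both parts of the ratio moved. In 6T-CEM the scaffold level was 29 CPM per kb before and 9.67 after knockdown, and the summed stabilizer level 65.6 and 75.8. In J.gamma1 the scaffold level was 15.7 and 8.47, and the summed stabilizer level 62.5 and 94.4.

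The SSBP4 share of the stabilizer level was higher after knockdown in both lines, with no overlap. In 6T-CEM it went from 53.1% and 54.2% to 59.8% and 60.6%, and in J.gamma1 from 39.1% and 40.2% to 50.6% and 53.7%. The 6T-CEM share of SSBP2 went from 19.1% ± 1.6 to 15.3% ± 0.75, and its J.gamma1 share from 21.6% ± 0.22 to 14% ± 0.90. That of SSBP3 went from 27.2% ± 0.81 to 24.4% ± 0.18, and from 38.7% ± 0.58 to 33.8% ± 1.3. The smaller SSBP3 share in J.gamma1 stands beside a higher SSBP3 level, since SSBP4 rose by more.

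**Figure D3:**
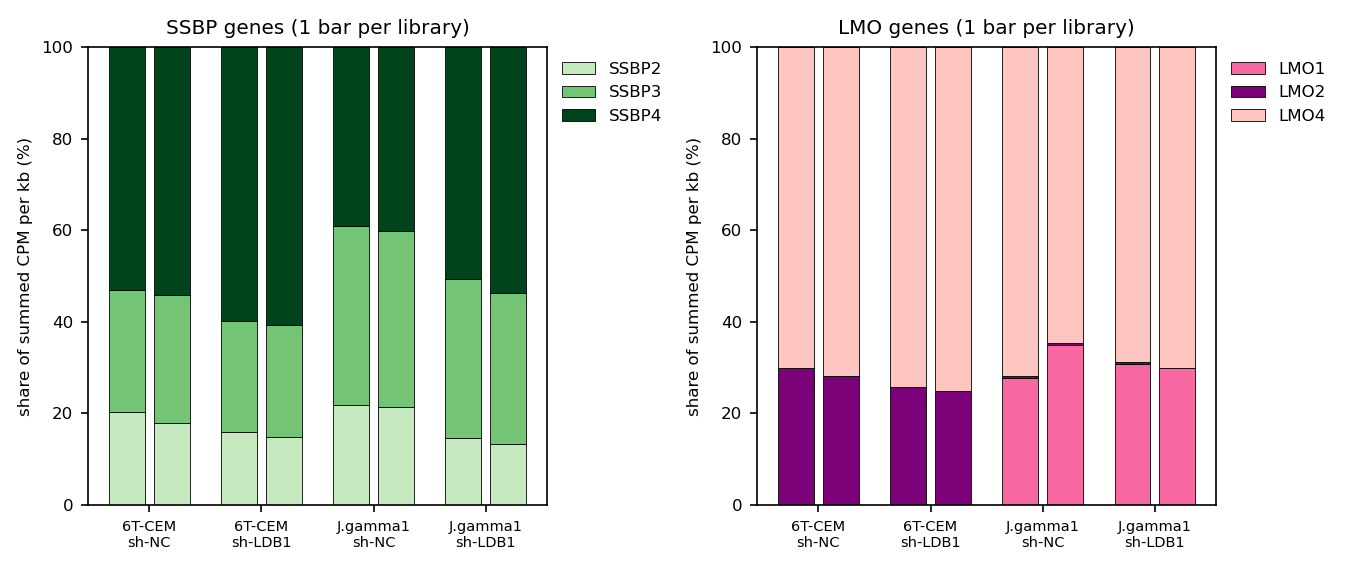
Share of each gene in the summed CPM per kb of the SSBP genes (left) and LMO genes (right), in percent, with 1 bar per library. The dark SSBP4 segment is larger in the sh-LDB1 bars of both lines, while LMO4 makes up most of each LMO bar, beside LMO2 in 6T-CEM and LMO1 in J.gamma1.

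Among the adaptors LMO4 was the main gene in both lines. LMO4 made up 71.0% ± 1.2 of the summed LMO level in 6T-CEM sh-NC cells and 74.7% ± 0.62 in sh-LDB1 cells, with LMO2 as the remainder. In J.gamma1 it made up 68.3% ± 5.1 and 69.4% ± 0.86, with LMO1 as nearly all of the remainder, and these libraries overlapped. The summed LMO level was 14.4 CPM per kb before and 10.1 after knockdown in 6T-CEM, and 16.5 and 9.69 in J.gamma1. Relative to the scaffold it went in 6T-CEM from 0.496 ± 0.015 to 1.04 ± 0.017. The J.gamma1 ratios, 1.01 and 1.08 in control cells and 1.05 and 1.25 after knockdown, overlapped. For RLIM the 6T-CEM ratio went from 0.369 ± 0.0048 to 1.22 ± 0.010, and the J.gamma1 ratio from 0.790 ± 0.0061 to 1.49 ± 0.0089 (SD, n = 2). With the length of the longest-CDS transcript the RLIM ratios were 0.303 and 0.995 in 6T-CEM, and 0.652 and 1.23 in J.gamma1. RLIM itself stood at 111% of the control in 6T-CEM and 102% in J.gamma1 and was called in neither main fit. Its ratio therefore mostly restates the fall of LDB1.

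**Figure D4:**
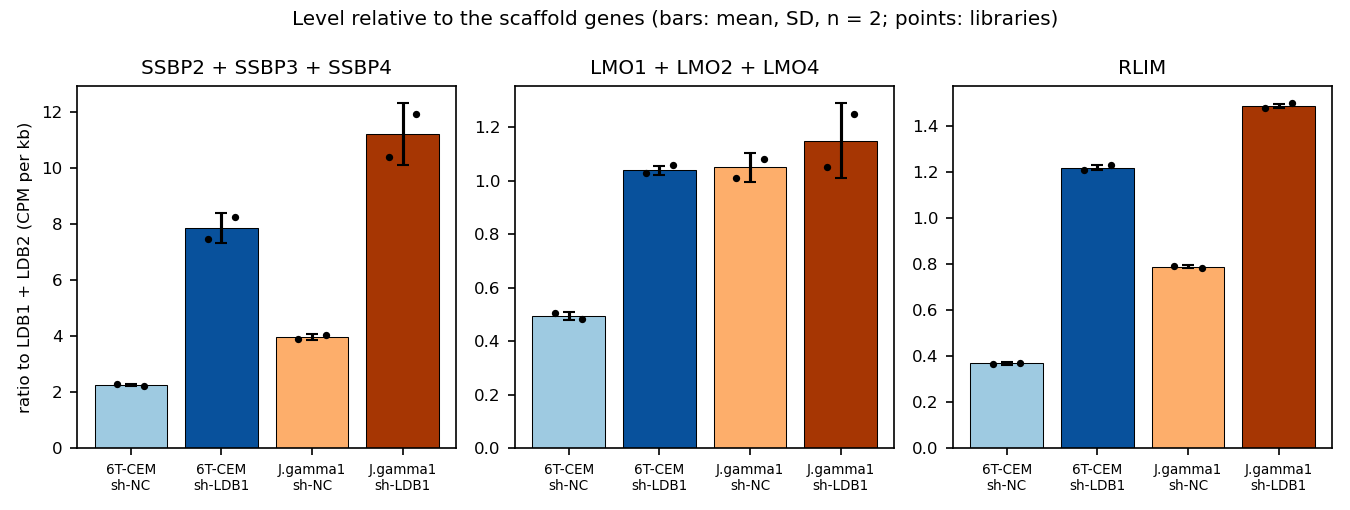
Summed CPM per kb of the SSBP genes, the LMO genes and RLIM divided by that of LDB1 and LDB2, by group. Bars are means with SD (n = 2) and points are libraries. The divisor is nearly all LDB1, the target of the knockdown, so its fall alone raises each ratio. The SSBP and RLIM ratios are higher with sh-LDB1 in both lines, and the LMO ratio is higher with sh-LDB1 in 6T-CEM while its J.gamma1 libraries overlap.

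Other genes encode proteins that meet LDB1 in such complexes. Of 13 genes for LIM-homeodomain factors and LMO3, which bind LDB1 through LIM domains, 6T-CEM allowed a test of 2 and J.gamma1 of 7. LHX4 in 6T-CEM, and LHX1 and LHX2 in J.gamma1, passed the filter on low counts only through the sh-NC libraries, where they were higher, so that their falls are given as values without a test. That left 1 gene in 6T-CEM, which was not called, and 5 in J.gamma1, of which 1 fell and 1 rose, where 26.5% of all genes fell and 25.0% rose. The median log2 fold change of these 5 was -0.39, and that of all genes 0.000. LHX4 went from 16 and 35 counts to 7 and 9 in 6T-CEM, and from 186 and 202 to 28 and 33 in J.gamma1. In J.gamma1 it changed by -2.52 ± 0.239 SE on the log2 scale (adjusted p = 8.66e-06), but its exons share 1866 bases with ACBD6 on the opposite strand, so these counts are uncertain. LHX1 had 12 and 22 counts in J.gamma1 sh-NC cells and 4 and 3 in sh-LDB1 cells. LHX2 had 13 and 20 counts and then 0 and 0. Its mean sh-NC level was 4.99 times that of 3 counts per library in sh-LDB1 cells, which is not a lower limit for the fall.

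Of 12 genes for DNA-binding and bridging partners, among them TAL1, LYL1, the E-proteins, the GATA factors and the ETO-family corepressors, 10 were tested in each line. In 6T-CEM 5 fell and 1 rose, where 16.2% of all genes fell and 15.1% rose. In J.gamma1 7 fell and 1 rose, against 26.5% and 25.0% of all genes. The median log2 fold change was -0.20 (6T-CEM) and -0.70 (J.gamma1), against 0.003 and 0.000 over all genes. LYL1, a bHLH factor that pairs with E-proteins as TAL1 does, fell in 6T-CEM from 45.5 and 44.7 to 12.3 and 11.7 normalised CPM (log2 fold change -1.91 ± 0.096 SE, adjusted p = 3.98e-09). In J.gamma1 it fell from 8.92 and 7.36 to 1.39 and 1.77 (-2.35 ± 0.225 SE, adjusted p = 9.01e-06). TAL1, the bHLH factor that is switched on in many cases of T-ALL, fell in J.gamma1 from 318.1 and 307.4 to 134.0 and 132.8 normalised CPM (-1.22 ± 0.047 SE, adjusted p = 1.36e-08). In 6T-CEM its groups overlapped (-0.06, interval -0.23 to 0.12, adjusted p = 0.661), and the difference between the lines passed the test (-1.17 ± 0.084 SE, adjusted p = 2.42e-06).

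GATA2 and CBFA2T3, a GATA factor and the corepressor ETO2, passed the threshold of 1 in J.gamma1 only. GATA2 fell by 1.23 on the log2 scale there (± 0.155 SE, adjusted p = 6.58e-05) and by 0.66 in 6T-CEM (± 0.169 SE, adjusted p = 0.00813). CBFA2T3 fell by 1.01 (± 0.055 SE, adjusted p = 1.39e-07) and by 0.87 (± 0.093 SE, adjusted p = 5.66e-06). The difference between the lines did not pass the test for either gene, with an adjusted p of 0.082 for GATA2 and 0.341 for CBFA2T3.

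**Figure D5:**
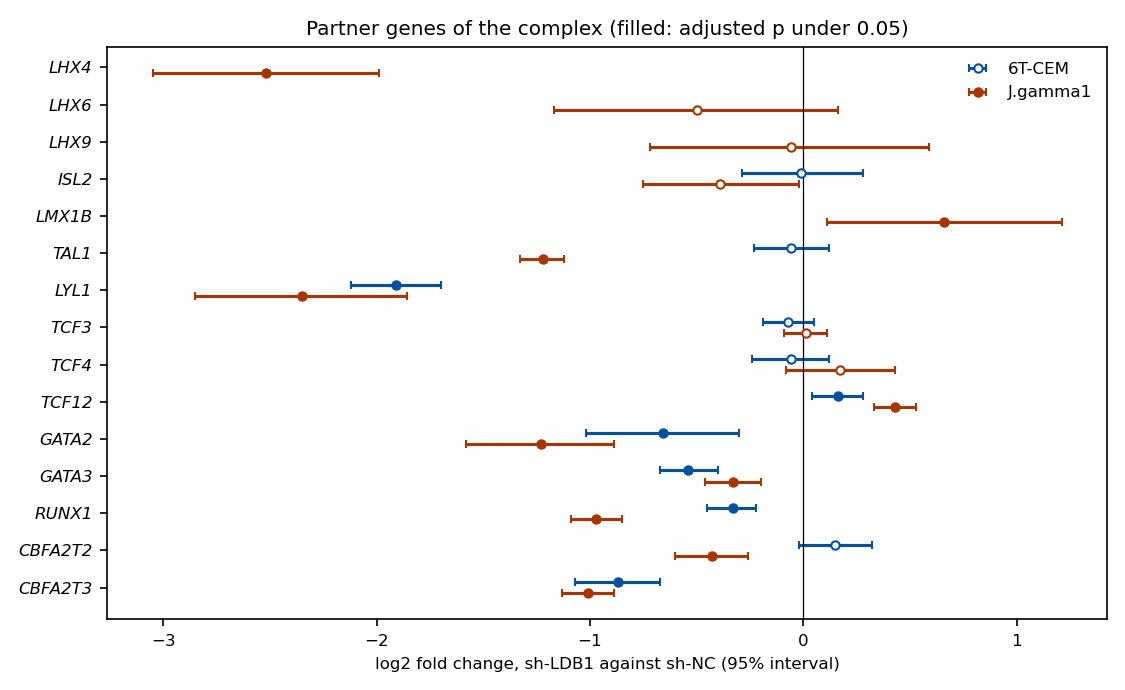
Log2 fold change of sh-LDB1 against sh-NC, with its 95% interval, for the LIM-homeodomain genes and partner genes tested, with 6T-CEM in blue and J.gamma1 in brown, filled where the adjusted p was under 0.05. Genes that passed the filter on low counts only through the sh-NC libraries are left out (LHX4 in 6T-CEM, LHX1 and LHX2 in J.gamma1). The interval of LYL1 lies left of 0 in both lines, and that of TAL1 does so in J.gamma1 and holds 0 in 6T-CEM.

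The genes whose normalised log2 level was most like that of each complex gene were listed over all 8 libraries among 13614 genes with a mean of at least 50 normalised counts. These values are descriptions, since 8 libraries of 2 lines share both the line and the knockdown as sources of variation. For LDB1 they were TRIM65 (Pearson r = 0.9932), RAP1GDS1 (0.9908) and ACO1 (0.9903), and their log2 fold changes of -1.06, -0.73 and -0.79 in 6T-CEM were all smaller in size than that of LDB1. For SSBP4 they were NACC1 (0.9922), PDAP1 (0.9915) and HSP90B1 (0.9907), and for SSBP3 they were SETD7 (0.9960), GSTK1 (0.9924) and PPP6R2 (0.9923). For LMO4, KCTD17 (0.9939), HDAC8 (0.9913) and MMGT1 (0.9906) came first, and each fell by more than LMO4 in both lines.

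For LMO1 and LMO2 the likeness follows the difference between the lines. NR2F2 (0.9999), FRMD5 (0.9999) and HOTAIRM1 (0.9998) were most like LMO1, and ZC3H13 (0.9943), CAST (0.9941) and FMN1 (0.9922) most like LMO2. RLIM was most like TYW1B (0.9925), KHDC1-AS1 (0.9763) and MDM4 (0.9752). SSBP2 had the weakest best match of the 8 genes compared, C17orf67 (0.9704), followed by PHOSPHO2 (0.9690) and CSPP1 (0.9657).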

How the data were processed

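The authors aligned reads to hg38 with HISAT2 2.2.0, quantified genes with StringTie and deposited, per line, whole-number counts per gene without normalization. The annotation release and the use of strand are not given in the sources used here. Of 64252 genes, 56105 matched a symbol. The 9 genes and the lists were chosen with earlier results of these data known. Counts were tested with edgeR 4.0.16 (R 4.3.3, robust quasi-likelihood, TMM, filterByExpr, Benjamini-Hochberg over all genes), each line by itself on 16059 and 17215 genes. The interaction and the sh-NC comparison used all 8 libraries (18552 genes). The threshold was an adjusted p of 0.05, with no limit on the fold change unless stated. Standard errors come from the fold change and F statistic. Steps were tested on simulated data.

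Library totals were 26160492 to 30604977 counts. Coordinates, exon lengths and UTRs come from GENCODE on GRCh38. Genes named are those 9, genes of 2 partner lists past a log2 fold change of 1 in at least 1 line, 3 more that differed between the lines, and the 3 most similar genes to each of the 9, except LDB2, whose mean count was under 50. Alternatives were DESeq2 1.42.0, other scaling, no filter, a fit to all libraries, another gene length, a replicate block and leaving out each library.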

Additional observations from a re-analysis of the deposited data

Results flagged for a closer look

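By the interaction test of edgeR over all 8 libraries, which called 24.4% of all genes, the knockdown change differed between the lines for 3 of 7 genes of the complex and 4 of 10 partner genes, given as the change in J.gamma1 minus the change in 6T-CEM on the log2 scale. The difference was 0.70 for LDB1, whose fall was smaller in J.gamma1, and it lay between 0.65 and 0.76 when other settings were used or 1 library was left out. It was 0.62 for SSBP4 (range 0.53 to 0.70) and 0.35 for SSBP3 (range 0.31 to 0.39), both of which rose more in J.gamma1. It was -1.17 for TAL1, and among the other partner genes, named here after their values were seen, 0.27 for TCF12, -0.64 for RUNX1 and -0.58 for CBFA2T2. LMO2 is among the 7 genes of the complex, but the count does not test it, since LMO2 was near 0 in J.gamma1. The shRNA and the depth of knockdown cannot be told apart from the line, since each line had 1 knockdown.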

How the results depend on the processing

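With a log2 fold change beyond 1 added to the adjusted p, the number of genes of the complex called was 1 in place of 4 in 6T-CEM, and 0 in place of 5 in J.gamma1, by the construction of the rule. Under the other settings the counts stayed between 3 and 5 in 6T-CEM, at 5 in J.gamma1, between 3 and 4 for the difference between the lines and between 7 and 9 for the sh-NC lines. Of 358 alternative values of single genes, 344 kept their direction and their side of the threshold, 2 lost and 5 gained a call, and 7 turned. None of the 7 was a called change. LDB2 in 6T-CEM turned to -0.01 without sh-NC replicate 2 and to -0.06 without sh-LDB1 replicate 1, in a range of -0.06 to 0.90. In J.gamma1 SSBP2 turned to 0.01 with library totals alone and to 0.0048 without sh-LDB1 replicate 2 (range without 1 library -0.05 to 0.0048), and RLIM to -0.0047 without sh-NC replicate 2 and to -0.02 without sh-LDB1 replicate 1 (range -0.02 to 0.08). The difference between the lines for LMO2 turned to 0.56 without J.gamma1 sh-LDB1 replicate 2, which is the library with 0 LMO2 counts, and reached -4.54 without replicate 1 of that group. The cause was otherwise not tested.

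The labels do not say whether same-numbered libraries were paired. Their deviations from the group means had a correlation over genes of -0.0179 (6T-CEM) and -0.0357 (J.gamma1). No shared shift was seen, but this cannot show whether same-numbered libraries were handled together. With the replicate block the counts were again 4, 5, 3 and 7. With 2 libraries per group, an exact permutation test of a single value could not go below p = 0.333, and no library can be called an outlier. Depth limits LDB2, LMO2 in J.gamma1 and the LIM-homeodomain genes.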
